A study of Homo sapiens with 16 samples.

Results

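RNA of UXT knockdown cells was set against RNA of control cells, both without tumour necrosis factor (TNF). The cells were HCT116, a human line derived from a colorectal carcinoma. The siUXT PBS library came from cells transfected with small interfering RNA (siRNA) against UXT and given phosphate-buffered saline (PBS). The NC PBS library came from cells transfected with the preparation labelled NC and given PBS, a name that the labels do not spell out. The same series holds siUXT TNF, siEZH1 PBS, siEZH1 TNF and NC TNF libraries, which served here only to place the pair. All 6 libraries were made from poly(A)-selected RNA, with 1 library per condition, and another 10 chromatin samples of the series were not analysed here. Expression was given as FPKM, fragments mapped to a gene scaled by its length and by the size of the library. Gene symbols whose 6 values were the same were joined as 1 locus. A locus was kept where its mean over siUXT PBS and NC PBS was at least 1 FPKM, which left 11788 loci of 17642 above 0. Differences are log2 ratios of FPKM + 1, siUXT PBS over NC PBS, a scale on which the differences of weakly expressed genes are understated. With 1 library a side there is no replicate and no test, so every difference below compares these libraries and has no error.

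UXT encodes a small prefoldin-like protein that is part of the URI1 prefoldin-like complex and has been described as a nuclear cofactor of the NF-kB subunit RELA. Prefoldins hand unfolded proteins to the chaperonin, and the related R2TP complex helps to assemble RNA polymerases and other large complexes. EZH1, EZH2, SUZ12 and EED are subunits of Polycomb repressive complex 2 (PRC2), which methylates lysine 27 of histone H3. The title of the series ties an EZH1 and SUZ12 complex, through UXT, to transcription of NF-kB target genes, so the pair without TNF asks what UXT knockdown does before NF-kB is stimulated.

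UXT itself was at 27.7 FPKM in siUXT PBS and 24.6 FPKM in siUXT TNF, against 59.6 FPKM in NC TNF and 62.2 FPKM in NC PBS. The siEZH1 libraries held 64.9 FPKM under PBS and 77.1 FPKM under TNF. Both siUXT libraries therefore lay below each of the other 4, and the log2 ratio was -1.14 in the PBS pair and -1.24 in the TNF pair.

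Of the 15 epithelial markers listed, 9 were at 1 FPKM or more in both libraries, and KRT8 stood at 1108 FPKM in siUXT PBS and 903 FPKM in NC PBS. The intestinal markers CEACAM5, CDX1 and VIL1 were listed at 0 in both. EPCAM, the epithelial adhesion molecule, was at 58.7 FPKM in siUXT PBS and 119.7 FPKM in NC PBS, outside the 102 to 154 FPKM of the other 4 libraries. Markers of other cell types were low. The 7 fibroblast markers summed to 8.14 FPKM in siUXT PBS and 6.28 FPKM in NC PBS, nearly all from COL1A1. The 6 leukocyte markers summed to 2.14 and 1.60 FPKM in siUXT PBS and NC PBS, mostly CD68, with PTPRC, CD3E and CD14 listed at 0 in both. The 4 endothelial markers summed to 0.159 and 0.150 FPKM in siUXT PBS and NC PBS. In a bulk library, fewer cells of a kind and less RNA per cell cannot be told apart. The FPKM of all loci summed to 647599 in siUXT PBS and 617998 in NC PBS, and the 10 largest loci held 13.2% and 12.6% of those sums. Read numbers are unknown. Among 1574 loci above 0 and under 0.4 FPKM in both libraries, 282 lay within 1% of the most frequent FPKM ratio. From that ratio the depth of siUXT PBS is estimated at 0.951 of NC PBS.

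The siUXT PBS library stood apart from all others, not only from its control. Against NC PBS, 769 loci (6.52% of those kept) were at least 2-fold lower in siUXT PBS and 49 loci (0.416%) were at least 2-fold higher. At 1.5-fold, 1920 loci (16.3%) were lower and 499 (4.23%) higher. The median log2 ratio over all loci was 0.05, with 5426 loci below 0 and 6362 above 0; since FPKM is scaled to the size of each library, this median cannot show a shift of the whole transcriptome. The 10th percentile was -0.81 and the 90th percentile 0.46, so the distribution has a long tail on the low side. The scatter of both libraries shows that tail below the diagonal at most expression levels. Loci at the limits show what the thresholds mean: RTN4RL1 was kept with a mean of 1.00 FPKM and TSNAXIP1 left out with 0.999 FPKM. FAM171B, at 2.05 FPKM in siUXT PBS and 5.10 FPKM in NC PBS, counted as 2-fold lower, whereas FAM134B, at 0.720 and 2.44 FPKM in siUXT PBS and NC PBS, did not. On the high side, LHB, at 2.96 FPKM in siUXT PBS and 0.988 FPKM in NC PBS, fell just short of 2-fold higher.

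**Figure D1:**
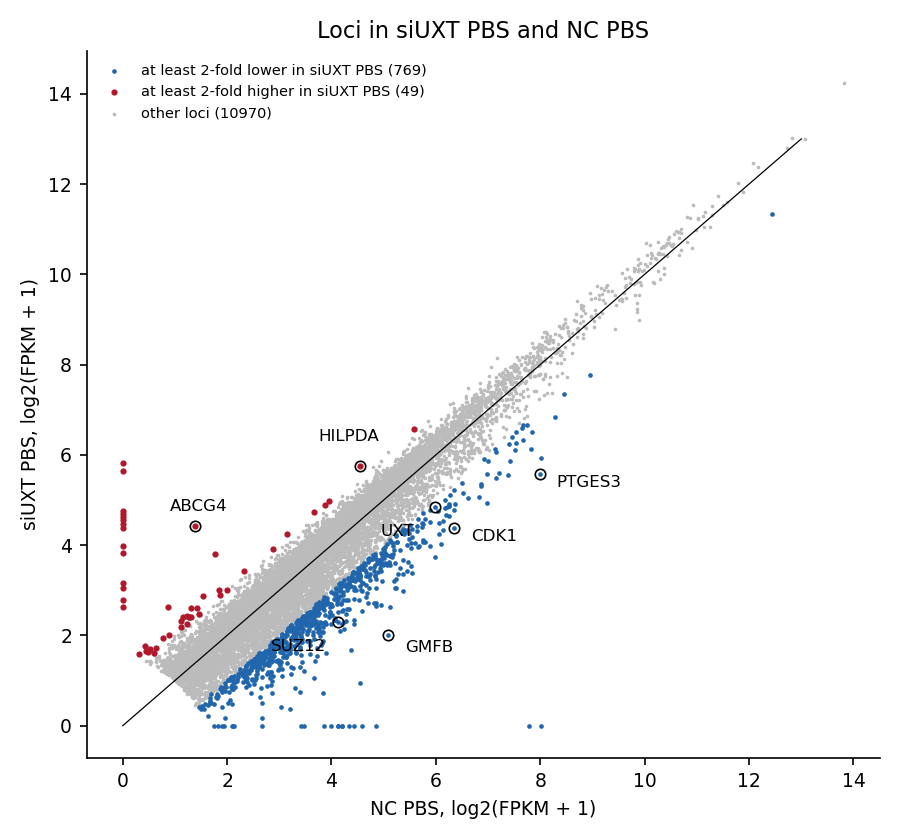
Each point is 1 of the 11788 loci, with log2(FPKM + 1) of siUXT PBS on the vertical axis and of NC PBS on the horizontal axis; the line marks equal values and circles mark named genes. The 769 loci at least 2-fold lower in siUXT PBS (blue) form a band below the line, while the 49 at least 2-fold higher (red) are scattered and 14 of them are listed at 0 in NC PBS.

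Set against each of the other 5 libraries in turn, siUXT PBS had between 641 and 1477 loci at least 2-fold apart. The 10 pairs among those 5 libraries had between 88 and 489. In all 5 pairs most of these loci were on the low side of siUXT PBS, from 567 lower and 74 higher against NC TNF to 1276 lower and 201 higher against siEZH1 PBS. Against siUXT TNF, the other UXT knockdown library, 793 were lower and 47 higher. Over 11845 loci kept on the mean of all 6 libraries, 353 were at least 2-fold lower in siUXT PBS than in each of the other 5, whereas the same count for any other library was between 1 and 3. On the high side siUXT PBS had 7 such loci and the other libraries 5 to 10. With 1 siUXT PBS library, UXT knockdown under PBS and what is peculiar to that library cannot be told apart.

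**Figure D2:**
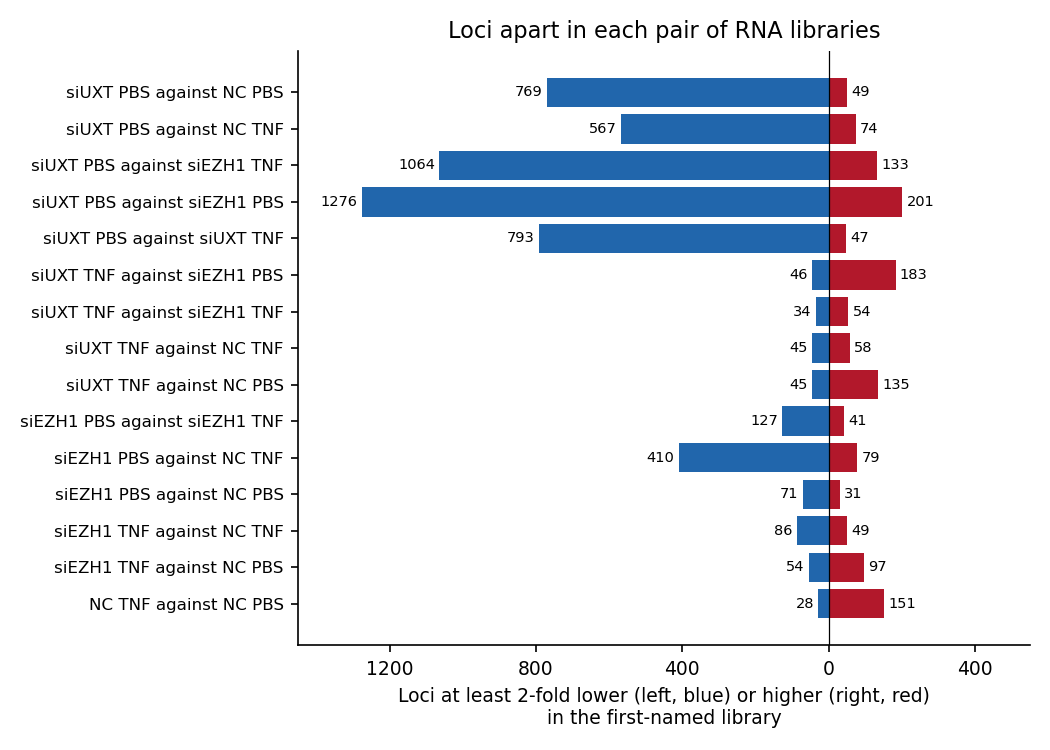
Bars give the number of loci at least 2-fold lower (blue, left) or higher (red, right) in the first-named library of each of the 15 pairs of RNA libraries. The 5 pairs that hold siUXT PBS have 567 to 1276 loci on the low side, and siUXT TNF against NC TNF has 45 lower and 58 higher.

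The TNF pair, which shares no library with the PBS pair, gave the same UXT ratio but few of the other differences. In siUXT TNF against NC TNF, 45 of 11790 loci (0.382%) were at least 2-fold lower and 58 (0.492%) at least 2-fold higher. Of the 769 loci lower in siUXT PBS, 7 were at least 2-fold lower in siUXT TNF than in NC TNF and 12 at least 1.5-fold lower. The 7 were UXT, the small nucleolar RNAs SNORA31, SNORD15A, SNORA76 and SNORA57, the pseudogene RPSAP58 and LOC100133957. Only 205 of the 769 had a ratio below 0 in the TNF pair, whereas 47.9% of all loci kept did. The median of the 769 in the TNF pair was 0.14, against 0.01 for all loci kept. The siUXT PBS value was the lowest of the 6 libraries at 745 of the 769, or 96.9%, against 29.9% of all loci kept; the choice of low loci favours this share. NC PBS was the highest of the 6 at 65 of the 769. Over the 11845 loci kept on the mean of all 6 libraries, it was the highest at 6.86%. Of the 49 higher loci, 7 were at least 2-fold and 12 at least 1.5-fold higher in the TNF pair as well. These 7 were ATP6V1E2, FAM212A and the small RNAs SNORA67, SCARNA16, SNORA62, SNORA79 and SNORD15B.

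At 1.5-fold in both pairs, 32 loci were lower and 41 higher in the siUXT library, UXT among the lower ones. These are 32 of the 1920 lower and 41 of the 499 higher loci of the PBS pair. The share of all loci 1.5-fold apart in the TNF pair is not given here, so the overlap has no background beside it. The genes in this paragraph come from the overlapping loci that were also at least 2-fold apart in the PBS pair, 12 lower and 12 higher. STX3, a syntaxin of membrane fusion, was at 25.6 FPKM in siUXT PBS and 18.6 FPKM in siUXT TNF, against 9.51 FPKM in NC TNF and 11.8 FPKM in NC PBS. ATP6V1E2, a subunit of the vacuolar proton pump, was at 4.41 and 2.29 FPKM in siUXT PBS and siUXT TNF, against 0.642 and 1.34 FPKM in NC TNF and NC PBS. The transcription factor gene BHLHA15 and FAM212A were higher in both pairs at low levels, with BHLHA15 at 3.58 FPKM in siUXT PBS and 1.17 FPKM in NC PBS. On the low side stood GTF2IRD2, FAM72A and ZNF92 with the pseudogenes RPSAP58 and ANXA2P2. These pseudogenes were not low in the siUXT libraries alone. In siEZH1 PBS, RPSAP58 was at 0.751 FPKM and ANXA2P2 at 0.398 FPKM, below their 1.62 and 0.645 FPKM in siUXT PBS. In siEZH1 TNF both pseudogenes were above NC TNF. GTF2IRD2, FAM72A and ZNF92 were higher in both siEZH1 libraries than in both siUXT libraries. GTF2IRD2 and FAM72A are known to have close copies in the genome, and pseudogenes share sequence with their parent genes, so how reads were split among the copies is uncertain; sequence identity was not computed here. ZNF92, a zinc finger gene, was at 0.638 FPKM in siUXT PBS and 2.50 FPKM in NC PBS, and at 2.38 FPKM in siUXT TNF and 5.24 FPKM in NC TNF. GTF2IRD2 was at 0.749 FPKM in siUXT PBS and 3.25 FPKM in NC PBS, and at 1.46 FPKM in siUXT TNF and 3.002 FPKM in NC TNF. The small nucleolar RNAs SNORA31 and SNORD15A were listed at 0 in both siUXT libraries and in both siEZH1 libraries, so only the NC libraries held them. SNORD15B was listed at 0 in NC PBS, NC TNF and both siEZH1 libraries. Small nucleolar RNAs switched between 0 and high values in many libraries: of 53 kept, 17 were at least 2-fold lower and 10 at least 2-fold higher in siUXT PBS.

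The PRC2 core subunit SUZ12, which holds the complex together, was at 3.92 FPKM in siUXT PBS and 16.4 FPKM in NC PBS, a log2 ratio of -1.82. The other 4 libraries held 14.7 FPKM in siUXT TNF, 25.9 FPKM in siEZH1 PBS, 20.5 FPKM in siEZH1 TNF and 13.4 FPKM in NC TNF, so siUXT PBS was the one low library. EED, which binds methylated histone H3, was at 4.73 FPKM in siUXT PBS and 11.0 FPKM in NC PBS. The catalytic subunits were closer. EZH2 was at 21.1 FPKM in siUXT PBS and 26.3 FPKM in NC PBS, a log2 ratio of -0.30, and EZH1 was at 6.27 and 5.45 FPKM in siUXT PBS and NC PBS, a log2 ratio of 0.17. Of the 13 PRC2 loci, 3 (23.1%) were at least 2-fold lower, against 6.52% of all loci, the third being the locus of LCOR. At 1.5-fold, 5 were lower. The accessory subunit MTF2 stood at 5.52 FPKM in siUXT PBS and 10.3 FPKM in NC PBS, and JARID2 at 6.87 and 5.22 FPKM. The PRC2 median was -0.36 in the PBS pair and 0.24 in the TNF pair. In the PRC1 list, whose complex ubiquitinates histone H2A, 2 of 24 loci (8.33%) were at least 2-fold lower, near the 6.52% of all loci. They were RYBP and the ubiquitin ligase RNF2. RYBP was at 3.71 FPKM in siUXT PBS and 10.8 FPKM in NC PBS, and RNF2 at 3.37 and 8.02 FPKM.

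The prefoldin subunits differed among themselves. VBP1 and PFDN4, subunits of the canonical prefoldin hexamer, were low: VBP1 was at 15.5 FPKM in siUXT PBS and 44.7 FPKM in NC PBS, and PFDN4 at 1.46 and 8.30 FPKM. The other 4 libraries held 33.9 to 56.1 FPKM of VBP1 and 7.19 to 11.7 FPKM of PFDN4, so siUXT PBS was outside both ranges. PFDN2 and PFDN5 were on the other side, with PFDN2 at 144 FPKM in siUXT PBS and 94.0 FPKM in NC PBS, and PFDN5 at 231 and 181 FPKM. Of the partners of UXT, URI1 was at 6.83 FPKM in siUXT PBS and 13.2 FPKM in NC PBS, and the R2TP subunit RPAP3 at 2.19 and 5.92 FPKM. The ATPases RUVBL1 and RUVBL2 were not low, with RUVBL2 at 158 FPKM in siUXT PBS and 118 FPKM in NC PBS. In all, 4 of 14 loci of this list (28.6%) were at least 2-fold lower, UXT among them, against 6.52% of all loci. The list median was 0.13. In the TNF pair VBP1 was at 46.2 FPKM in siUXT TNF and 33.9 FPKM in NC TNF, above its control.

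**Figure D3:**
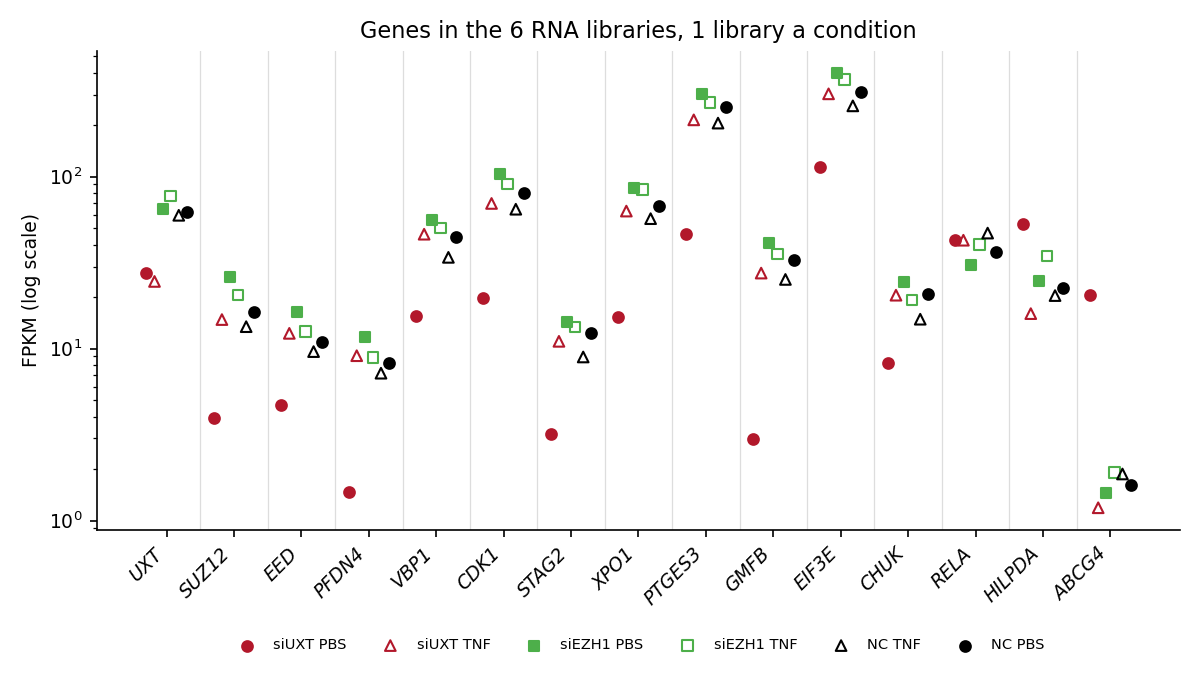
FPKM on a log scale in the 6 libraries for 15 genes, siUXT PBS leftmost (red filled circle) and NC PBS rightmost (black circle) within each gene; open symbols are TNF libraries and squares siEZH1. UXT is low in both siUXT libraries, whereas SUZ12, EED, PFDN4, VBP1, CDK1, STAG2, XPO1, PTGES3, GMFB, EIF3E and CHUK are low in siUXT PBS alone, and ABCG4 is high there at 20.5 FPKM.

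Without TNF, more of the kept NF-kB target loci were above than below their control. Of the barely expressed target loci, more were below than above it. Of 59 target loci above 0, 24 had a mean under 1 FPKM, the inducible chemokines among them. Of these 24, 12 were lower and 4 higher in siUXT PBS, and 8 were listed at 0 in both; 12 were listed at 0 in siUXT PBS and 8 in NC PBS. None exceeded 1.01 FPKM in siUXT PBS or 1.29 FPKM in NC PBS. Whether other loci under 1 FPKM lay to the same side was not counted. The chemokine IL8 was at 0.321 FPKM in siUXT PBS and 0.307 FPKM in NC PBS, and CCL20 was listed at 0 in both. CXCL1 was at 0.244 FPKM in siUXT PBS and 1.29 FPKM in NC PBS, and the ubiquitin-editing inhibitor TNFAIP3 at 0.916 and 1.07 FPKM. Of the 35 target loci kept, 23 had a ratio above 0 and 12 below, with a median of 0.24. Over all 11788 loci kept, 6362 were above 0 and 5426 below, with a median of 0.05. BIRC2, an inhibitor of apoptosis that also acts in TNF receptor signalling, was the only target at least 2-fold lower, at 4.38 FPKM in siUXT PBS and 11.8 FPKM in NC PBS. No target was at least 2-fold higher. The receptor CD40 came nearest with 21.8 FPKM in siUXT PBS and 12.1 FPKM in NC PBS, then the NF-kB subunit gene NFKB2 with 41.7 and 24.3 FPKM. The inhibitor NFKBIA was at 22.8 FPKM in siUXT PBS and 26.9 FPKM in NC PBS, and NFKB1 at 9.79 and 10.2 FPKM.

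In the TNF pair the median of the same 35 loci was -0.17. IRF1, an interferon-response transcription factor, was at 58.7 FPKM in siUXT TNF and 92.8 FPKM in NC TNF, but at 11.9 FPKM in siUXT PBS and 8.62 FPKM in NC PBS. ICAM1, a leukocyte adhesion molecule, was at 30.1 FPKM in siUXT TNF and 46.5 FPKM in NC TNF, but at 2.55 and 1.42 FPKM in siUXT PBS and NC PBS. Their ratios thus had opposite signs in the 2 pairs, and the difference was not tested. Opposite signs were not particular to these genes, as medians by chromosome given below show. Other targets, such as NFKB2, SQSTM1, TNIP1 and MYC, were above their control in both pairs. CCND1, the cyclin D1 gene, was below its control in both, at 67.9 FPKM in siUXT PBS and 111 FPKM in NC PBS, and at 82.1 FPKM in siUXT TNF and 130.5 FPKM in NC TNF.

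Of 29 components of the pathway between TNF receptor and NF-kB, 3 (10.3%) were at least 2-fold lower, against 6.52% of all loci. They were BIRC2, the kinase gene CHUK and the ubiquitin-conjugating enzyme gene UBE2D3. CHUK, which encodes IKK alpha, was at 8.29 FPKM in siUXT PBS and 20.9 FPKM in NC PBS. UBE2D3 was at 46.7 FPKM in siUXT PBS and 126 FPKM in NC PBS. RELA, the NF-kB subunit that UXT is described to bind, was at 42.8 FPKM in siUXT PBS and 36.2 FPKM in NC PBS, within the 30.7 to 46.9 FPKM of the other 4 libraries. TNFRSF1A, the receptor, was at 44.9 FPKM in siUXT PBS and 35.8 FPKM in NC PBS, and the other IKK kinase gene IKBKB at 8.18 and 7.16 FPKM in a locus that shares a symbol. The list median was -0.06.

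Cohesin and condensin, the ring complexes that hold and fold chromosomes, had the lowest median of the 48 lists with a kept locus, -0.79 in the PBS pair and 0.14 in the TNF pair. Of 23 loci, 8 (34.8%) were at least 2-fold lower. The list also holds regulators of cohesin and the genes SMC5 and SMC6, which form a separate complex, with SMC5 among the 8. The cohesin subunit STAG2 was at 3.20 FPKM in siUXT PBS and 12.3 FPKM in NC PBS, with 8.94 to 14.3 FPKM in the other 4 libraries. The condensin ATPase SMC4 was at 6.31 FPKM in siUXT PBS and 17.0 FPKM in NC PBS. The acetyltransferases ESCO1 and ESCO2, which lock cohesin on sister chromatids, were at 0.808 and 4.40 FPKM in siUXT PBS, against 4.12 and 10.1 FPKM in NC PBS. Members of the same rings were not all low. SMC1A was at 20.7 FPKM in siUXT PBS and 17.9 FPKM in NC PBS, while its partner SMC3 was at 6.14 and 12.4 FPKM. The condensin subunits NCAPD2 and NCAPH were at 80.9 and 26.4 FPKM in siUXT PBS, against 61.3 and 23.1 FPKM in NC PBS.

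Of 49 mitotic genes, 12 (24.5%) were at least 2-fold lower, 36 had a ratio below 0 and none was at least 1.5-fold higher. CDK1, the kinase at the onset of mitosis, was at 19.7 FPKM in siUXT PBS and 80.4 FPKM in NC PBS, a log2 ratio of -1.98. It was at 69.8 FPKM in siUXT TNF and 64.6 FPKM in NC TNF, and the siEZH1 libraries held 104 FPKM under PBS and 90.6 FPKM under TNF. Genes of the spindle checkpoint and the kinetochore followed: TTK was at 3.77 FPKM in siUXT PBS and 14.9 FPKM in NC PBS, MAD2L1 at 29.2 and 81.9 FPKM, and NUF2 at 3.76 and 12.3 FPKM. TOP2A, which untangles DNA, was at 12.01 FPKM in siUXT PBS and 26.3 FPKM in NC PBS. Other mitotic genes were not low, among them PLK1 at 107 and 93.9 FPKM in siUXT PBS and NC PBS, AURKB at 68.7 and 60.2 FPKM, and CDC20 at 216 and 169 FPKM. MKI67, the gene of the proliferation antigen Ki-67, was at 27.7 FPKM in siUXT PBS and 23.3 FPKM in NC PBS. The mitotic list therefore split, and its median was -0.27 in the PBS pair and 0.06 in the TNF pair. Of 49 DNA replication genes, 5 (10.2%) were at least 2-fold lower, against 6.52% of all loci. They included POLE2, a subunit of the leading-strand polymerase, at 2.81 FPKM in siUXT PBS and 11.6 FPKM in NC PBS.

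Promoters of SUZ12 and CDK1, low in siUXT PBS, and of ABCG4, the protein-coding gene with the highest ratio, are shown to set the searched motifs in their context. Each is the 250 bases before the annotated start, from RefSeq on GRCh38.p14, 5′ to 3′ on the strand of the gene. Capitals mark the motifs CCAAT, a box common in promoters of cell cycle genes, and TTTGAA, the core of the cell cycle homology region, on either strand. SUZ12 is at chr17:31936757-31937006 on the plus strand, CDK1 at chr10:60778081-60778330 on the plus strand and ABCG4 at chr11:119148802-119149051 on the plus strand.
SUZ12: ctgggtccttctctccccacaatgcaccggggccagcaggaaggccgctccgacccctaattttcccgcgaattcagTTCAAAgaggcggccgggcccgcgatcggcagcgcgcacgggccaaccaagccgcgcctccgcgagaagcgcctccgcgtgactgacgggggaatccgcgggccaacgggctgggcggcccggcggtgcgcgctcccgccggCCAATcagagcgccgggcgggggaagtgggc
CDK1: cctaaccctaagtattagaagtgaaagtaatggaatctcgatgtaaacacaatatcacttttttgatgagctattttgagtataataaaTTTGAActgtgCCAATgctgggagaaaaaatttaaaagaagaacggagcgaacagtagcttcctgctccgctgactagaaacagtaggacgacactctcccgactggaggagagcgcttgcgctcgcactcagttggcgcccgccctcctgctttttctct
ABCG4: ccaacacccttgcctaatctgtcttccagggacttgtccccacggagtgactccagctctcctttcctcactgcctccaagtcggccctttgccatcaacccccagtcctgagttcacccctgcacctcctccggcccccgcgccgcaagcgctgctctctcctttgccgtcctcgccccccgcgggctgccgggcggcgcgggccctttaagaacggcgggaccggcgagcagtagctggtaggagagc
The SUZ12 and CDK1 promoters each hold 1 CCAAT and 1 TTTGAA, and the ABCG4 window holds neither. Low genes did not all carry them: the window of PTGES3, among the 12 lowest genes, holds neither, and that of UXT holds 1 CCAAT and no TTTGAA. Among 8225 promoters of protein-coding loci kept, 7.88% hold TTTGAA on either strand, against 11.3% of the 550 whose gene was at least 2-fold lower and 3.04% of the 296 whose gene was at least 1.5-fold higher in siUXT PBS. CCAAT was in 36.7% of promoters of the lower loci, 39.2% of those of the higher loci and 35.1% of all. CCGGAAG, a core that ETS factors bind, was in 21.3%, 15.9% and 16.9%. GGGCGG was in 69.5%, 71.3% and 70.4%, TGACGT in 11.8%, 10.1% and 10.5%, and TATAAA in 3.82%, 6.08% and 4.77%. All were searched on both strands, and none contains another. These shares were not tested, and a match of letters does not show that a factor is bound.

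The lowest ratios among protein-coding genes with 1 symbol were in genes of no single pathway. GMFB, an actin regulator, was at 2.998 FPKM in siUXT PBS and 32.9 FPKM in NC PBS, 11.0-fold lower on the FPKM scale, while the other 4 libraries held 25.2 to 41.4 FPKM. SYNC, an intermediate filament protein, was at 2.21 FPKM in siUXT PBS and 19.9 FPKM in NC PBS. DCUN1D1, which promotes neddylation of cullins, was at 1.09 FPKM in siUXT PBS and 11.7 FPKM in NC PBS. PTGES3, the HSP90 co-chaperone p23, was the most abundant of the 12, at 46.6 FPKM in siUXT PBS and 253 FPKM in NC PBS, with 205 to 304 FPKM in the other 4 libraries. The remaining 8 were CAPZA2, GLRX2, ABHD13, USP1, TMEM123, EIF1AX, UHMK1 and VPS26A, with log2 ratios from -2.39 (CAPZA2) to -2.18 (VPS26A). They include an actin capping protein (CAPZA2), a mitochondrial glutaredoxin (GLRX2), a deubiquitinase of DNA repair (USP1) and a retromer subunit (VPS26A). In each of the 12 genes siUXT PBS held the lowest value of the 6 libraries, which their choice by a low ratio favours.

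From a mean of 20 FPKM upward the lowest ratios also included nuclear proteins. XPO1, the main nuclear export receptor, was at 15.3 FPKM in siUXT PBS and 67.9 FPKM in NC PBS, with 56.9 to 86.2 FPKM in the other 4 libraries. CBX3, the heterochromatin protein HP1 gamma, was at 29.3 FPKM in siUXT PBS and 126 FPKM in NC PBS, and the chromatin protein gene DEK at 7.30 and 36.1 FPKM. RAP1B, a small GTPase, was at 9.73 FPKM in siUXT PBS and 42.8 FPKM in NC PBS. RCN2, a calcium-binding protein of the endoplasmic reticulum, was at 10.7 FPKM in siUXT PBS and 44.95 FPKM in NC PBS. In each of these 5 genes siUXT PBS lay below all other libraries, which their choice by a low ratio favours as well.

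The higher side was short and mostly of weakly expressed genes. ABCG4, an ATP-binding cassette lipid transporter, was at 20.5 FPKM in siUXT PBS and 1.61 FPKM in NC PBS, a log2 ratio of 3.04. It was at 1.19 FPKM in siUXT TNF, 1.45 FPKM in siEZH1 PBS, 1.91 FPKM in siEZH1 TNF and 1.87 FPKM in NC TNF, so it was high in siUXT PBS alone. HILPDA, a lipid droplet protein induced by hypoxia, was at 53.2 FPKM in siUXT PBS and 22.4 FPKM in NC PBS, with 16.0 to 34.5 FPKM in the other 4. FEZ1, SPATA24, GNG13, SRMS, SRPX2, FABP6 and GCHFR had log2 ratios between 1.11 and 1.24 at levels of 2.24 to 4.32 FPKM in siUXT PBS. From 20 FPKM upward, MST1R, the receptor tyrosine kinase RON, was at 30.3 FPKM in siUXT PBS and 14.4 FPKM in NC PBS, a log2 ratio of 1.02. GANAB, a glucosidase of glycoprotein folding, was at 284 FPKM in siUXT PBS and 144 FPKM in NC PBS, and ACADVL, an enzyme of fatty acid oxidation, at 244 and 132 FPKM. Only HILPDA and MST1R among these abundant genes passed 2-fold.

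Lists of housekeeping machinery held low members beside many that were not. Of 52 loci of translation initiation factors, 7 (13.5%) were at least 2-fold lower, against 6.52% of all loci. EIF3E was at 113 FPKM in siUXT PBS and 311 FPKM in NC PBS, EIF3J at 5.58 and 24.8 FPKM, and the cap-binding protein gene EIF4E at 12.4 and 34.7 FPKM. In the same EIF3 complex, EIF3A was at 152 FPKM in siUXT PBS and 105 FPKM in NC PBS, and EIF3F at 109 and 72.1 FPKM. No ribosomal protein locus out of 75 was at least 2-fold apart, and their median was 0.14. Of 41 spliceosomal loci, 3 (7.32%) were at least 2-fold lower, near the share of all loci. They were LSM5, LSM6 and SNRPG, with LSM5 at 4.10 FPKM in siUXT PBS and 20.4 FPKM in NC PBS. The respiratory chain list had 1 such gene in 57 loci, NDUFA5 of complex I, at 3.39 FPKM in siUXT PBS and 17.8 FPKM in NC PBS, and the proteasome list had 1 in 35, PSMC6. SR and hnRNP proteins, which steer splicing, were shifted rather than split: 24 of 31 had a ratio below 0 and the median was -0.36, yet only SRSF1 was at least 2-fold lower, at 40.4 FPKM in siUXT PBS and 89.7 FPKM in NC PBS. Nucleoporins had a median of -0.31 with 0 of 19 loci at least 2-fold lower.

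Enzyme and trafficking families varied in their share of low members. Of 32 ubiquitin-conjugating enzymes, 7 (21.9%) were at least 2-fold lower, such as UBE2K at 8.54 FPKM in siUXT PBS and 27.9 FPKM in NC PBS. Of 48 RAB GTPases, 7 (14.6%) were at least 2-fold lower, with RAB10 at 20.5 FPKM in siUXT PBS and 49.0 FPKM in NC PBS and RAB14 at 11.4 and 28.5 FPKM. Of 29 kinesins, 5 were at least 2-fold lower, with KIF11, a motor of the mitotic spindle, at 3.67 FPKM in siUXT PBS and 11.4 FPKM in NC PBS. At a pseudocount of 0.1 FPKM the kinesins at least 2-fold lower were 8. Cytosolic tRNA synthetases had 0 of 16 loci at least 2-fold lower, DEAD and DEAH box helicases 1 of 48, which was DDX6, and the SLC solute carriers other than SLC25 had 9 of 166 (5.42%). Of the ZNF zinc finger genes, 8 of 299 loci (2.68%) were at least 2-fold lower. That share depended on the pseudocount: at 0.1 FPKM it was 20 of 299 (6.69%), against 1118 of all 11788 loci (9.48%).

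Glycolysis and hypoxia genes had a median of 0.33, with 22 of 31 loci above 0 and 1 at least 2-fold lower, the oxygen sensor EGLN1 at 7.56 FPKM in siUXT PBS and 22.3 FPKM in NC PBS. The glycolytic enzyme GPI was at 238 FPKM in siUXT PBS and 160 FPKM in NC PBS, and PKM at 1675 and 1218 FPKM. Wnt target genes had a median of 0.28, with the Wnt inhibitor NOTUM at 18.8 FPKM in siUXT PBS and 10.7 FPKM in NC PBS. The p53 targets split: CCNG1, RRM2B, PMAIP1 and ZMAT3 were at least 2-fold lower, with CCNG1 at 11.2 FPKM in siUXT PBS and 33.5 FPKM in NC PBS. The p53 target CDKN1A, a cell cycle inhibitor, was at 159 FPKM in siUXT PBS and 105 FPKM in NC PBS, and TP53I3 at 21.2 and 12.3 FPKM. The p53 median was 0.13 in both pairs. All list medians are to be read against the median of all loci, 0.05, and the shares against the 6.52% of all loci. Among protein-coding loci with 1 symbol, the median rose with level. It was -0.09 in the lowest of 4 bins by mean FPKM and 0.18 in the highest. Lists of abundant genes, such as glycolysis and ribosomal protein genes, were not set against loci of like level.

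**Figure D4:**
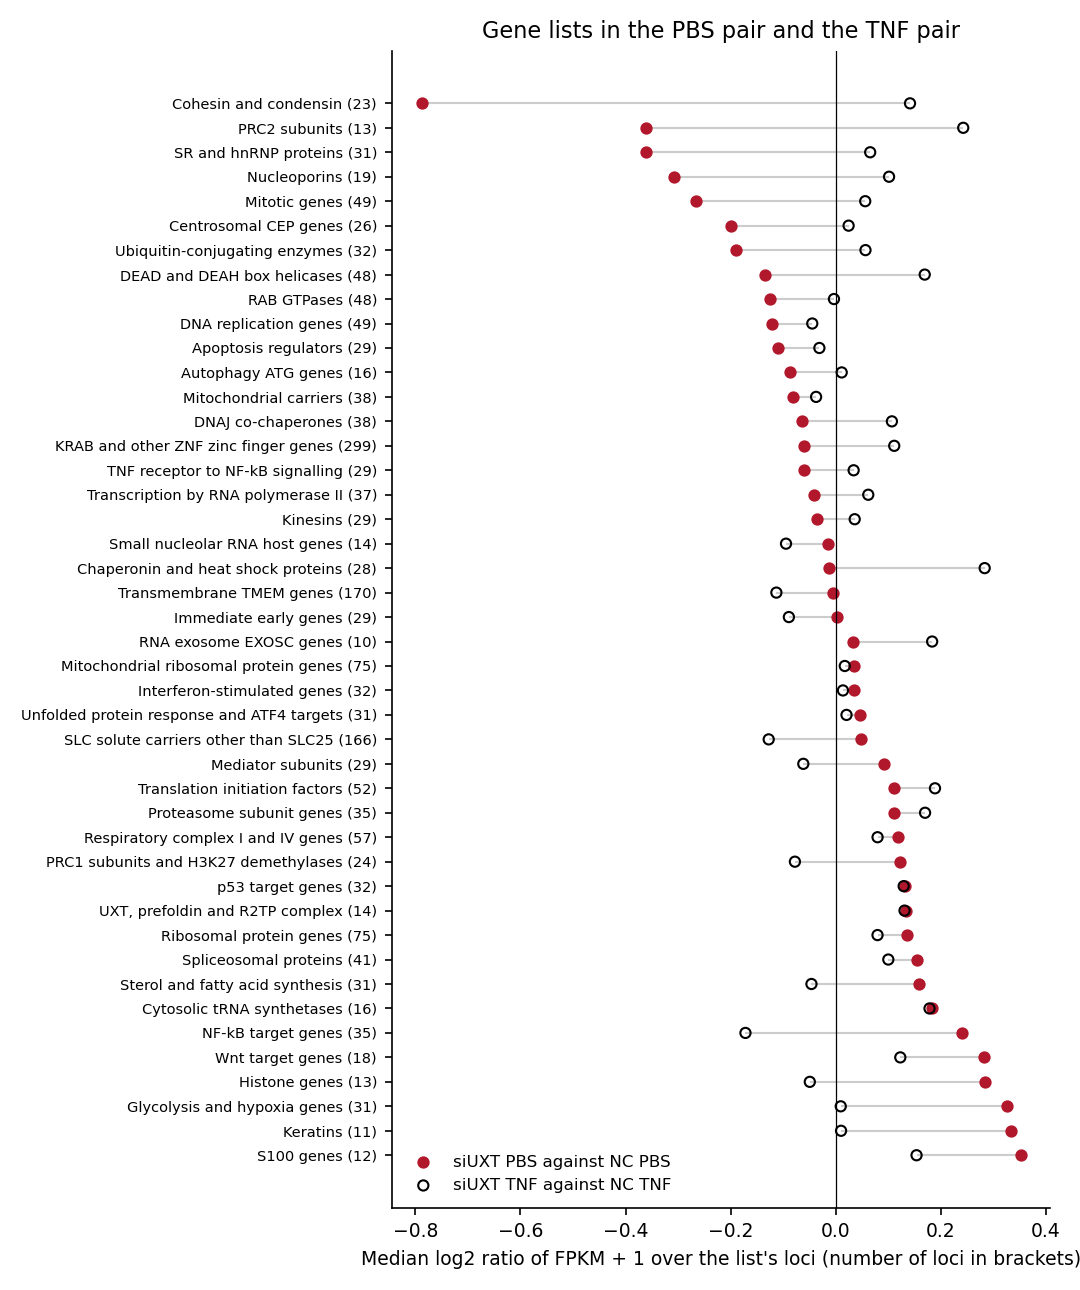
Median log2 ratio of FPKM + 1 over the kept loci of each gene list with at least 10 of them (small nucleolar RNAs left out), in siUXT PBS against NC PBS (red) and siUXT TNF against NC TNF (open). Cohesin and condensin, PRC2, SR and hnRNP, nucleoporin and mitotic lists lie lowest in the PBS pair, at -0.79 to -0.27, and above 0 in the TNF pair.

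The low loci were spread unevenly over the genome and over gene sizes. Positions here are those of RefSeq on GRCh38.p14, matched by symbol, while the reads had been aligned to hg19. Of 10013 protein-coding loci with 1 symbol, 662 (6.61%) were at least 2-fold lower. On chromosome 13 they were 21 of 164 loci (12.8%), on chromosome 4 46 of 363 (12.7%) and on chromosome 5 55 of 445 (12.4%). On chromosome 19 it was 1 of 715 loci (0.140%), on chromosome 22 0 of 242, and on chromosome 16 9 of 485 (1.86%). The chromosome medians ran between -0.36 on chromosome 13 and 0.24 on chromosome 19, with 0.21 on chromosome 17 and 0.19 on chromosome 22. In the TNF pair the medians had the opposite sign on chromosomes 13 and 19, with 0.14 on chromosome 13 and -0.15 on chromosome 19.

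**Figure D5:**
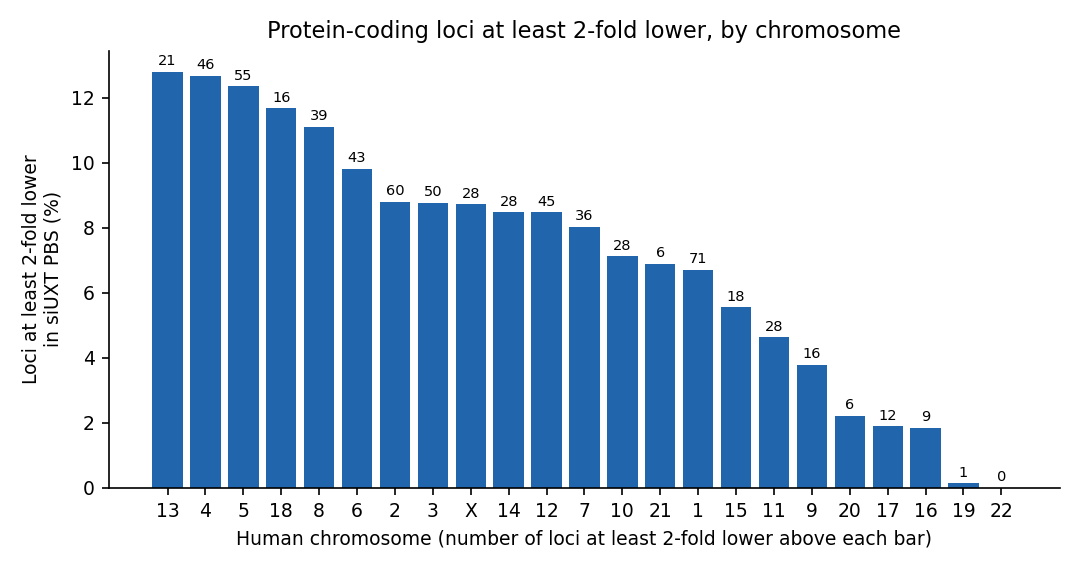
Bars give the percentage of protein-coding loci with 1 symbol that were at least 2-fold lower in siUXT PBS on each chromosome, ordered by that percentage, with the number of loci above each bar. Shares run from 12.8% on chromosome 13 to 0.140% on chromosome 19 and 0 of 242 loci on chromosome 22.

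In 4 bins of equal size by genomic gene span, from short to long genes, 2.80%, 6.75%, 9.47% and 7.43% were at least 2-fold lower, and the median log2 ratio was 0.17, 0.11, -0.05 and -0.10. In the TNF pair the medians of the same bins ran the other way, -0.08, 0.00, 0.06 and 0.08. Across the 10013 loci Spearman's rho of span with the log2 ratio was -0.23 in the PBS pair and 0.19 in the TNF pair. For siEZH1 PBS over NC PBS, a pair without UXT knockdown, rho was 0.27. Genes are not independent replicates and all share the same libraries. In 4 bins by mean FPKM, from low to high, the shares were 6.35%, 9.95%, 6.71% and 3.44%, so the low loci were not confined to weakly expressed genes. For the 8225 loci with a promoter sequence, the share was 8.17% in the bin of lowest promoter GC content and 4.82% in the bin of highest, of 4 bins. The part of gene span and promoter GC content in the low values was not tested.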

How the data were processed

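Poly(A) RNA of HCT116 cells was analysed from 6 libraries, 1 per condition; 10 chromatin samples were not analysed here. The authors deposited a table of FPKM by gene symbol for each library. According to the submitters' processing notes, FastQC, cutadapt, TopHat2, Bowtie and SICER were used with hg19; for versions, the FPKM program and the strand setting, the sources used here give nothing. Overlapping, antisense and near-identical genes are therefore uncertain. Of 28502 symbols, 19326 were above 0 and 22888 matched a RefSeq symbol. Symbols with identical values were merged; 1038 of the 11788 loci kept carry several symbols. No count, depth or replicate was available, so no test was run. An exact 0 is read only as listed at 0.

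Log2 ratios used a pseudocount of 1 FPKM. The work used matplotlib 3.10.9, scipy 1.17.1, pandas 2.3.3 and numpy 2.4.6 under Python 3.11.15, and the counting was checked on simulated data. Named genes were UXT, PRC2, NF-kB and prefoldin genes, the 12 lowest and 12 highest ratios among protein-coding loci with 1 symbol, the same from 20 FPKM, and up to 4 members per list; members named beyond these were chosen after their values were seen. 1 gene selected by this rule is not reported here. The members and the gene lists were chosen with earlier results of these data known. Protein lengths were not used here.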

Additional observations from a re-analysis of the deposited data

How the results depend on the processing

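Without replicates, no error stands behind any value, and the depth behind the FPKM is unknown. The count of loci at least 2-fold lower in siUXT PBS, 769, was 727 to 857 under both scalings and 538 at a mean of at least 5 FPKM. A pseudocount of 5 gave 245 lower and 17 higher, and a pseudocount of 0.1 gave 1118 lower and 137 higher. The 49 higher loci were 21 at a mean of at least 5 FPKM and 23 among protein-coding loci. In alternatives chosen after seeing the data, NC TNF as the control gave 567 lower and 74 higher, and siEZH1 PBS gave 1276 lower and 201 higher. In every one of these settings more loci were lower than higher. Among 48 list medians, 6 changed sign under median-of-ratios scaling, and 7 of 47 at a mean of at least 5 FPKM; none of the 220 named log2 ratios changed sign under median-of-ratios scaling or a pseudocount of 0.1. UXT stayed between -1.20 and -1.04. No paired analysis was possible because each condition has 1 library and the labels carry no replicate numbers.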
